A study of Mus musculus with 56 samples.

Results

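Sertoli cells are the nurse cells of the seminiferous tubule, and 10 genes that mark them or carry their signals were followed through RNA-seq libraries of the mouse male reproductive tract. The 10 genes were listed by name, matched to the Ensembl identifiers of the count table, and make up 10 of its 53379 genes. The libraries came from male C57BL/6 mice with no transgene or treatment, 4 mice of 3 months and 4 mice of 21 months, and covered 7 regions, from the testis through the efferent ductules and the initial segment, then the caput, the corpus and the cauda of the epididymis, to the vas deferens. Each region and age had 4 libraries, so 8 testis libraries and 48 duct libraries were available, 56 in all. Left and right organs of a mouse were combined, and the methods describe the 7 regions as coming from the same animals, so p-values measure the spread between mice within a region. Whole testis was sequenced, in which Sertoli cells are a minority beside germ cells, and in such bulk RNA fewer cells of a type and less RNA per cell cannot be told apart.

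In the adult testis, Sertoli cells surround the germ cells, seal the blood-testis barrier with tight junctions, and answer follicle-stimulating hormone (FSH) from the pituitary. Sox9, Wt1 and Gata4 are transcription factors that direct Sertoli cell fate and upkeep. Amh encodes anti-Müllerian hormone, and Inha and Inhbb encode the alpha and beta B subunits that join to form inhibin B, the hormone that lowers FSH. Fshr is the receptor for FSH, and Cldn11 is the claudin of the barrier. Dhh is a hedgehog ligand read by Leydig and peritubular cells, and Gdnf is the growth factor that keeps spermatogonial stem cells dividing.

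All 10 are protein-coding genes, placed here on GRCm38 by GENCODE M21, and their counts cover the exons of the whole gene. Of the transcription factors, Sox9 (ENSMUSG00000000567) at chr11:112782224-112787760, plus strand, lies on another chromosome than Wt1 (ENSMUSG00000016458) at chr2:105126529-105173616, plus strand, and Gata4 (ENSMUSG00000021944) at chr14:63198922-63271692, minus strand. Of the hormone genes, Amh (ENSMUSG00000035262) at chr10:80805243-80807648, plus strand, stands apart from Inha (ENSMUSG00000032968) at chr1:75507077-75510366, plus strand, and Inhbb (ENSMUSG00000037035) at chr1:119415465-119422248, minus strand, which share a chromosome. The receptor gene is Fshr (ENSMUSG00000032937) at chr17:88984952-89200675, minus strand, and the claudin gene Cldn11 (ENSMUSG00000037625) at chr3:31149920-31164324, plus strand. The ligand genes are Dhh (ENSMUSG00000023000) at chr15:98891152-98898540, minus strand, and Gdnf (ENSMUSG00000022144) at chr15:7810846-7837575, plus strand, also on a shared chromosome.

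Library totals ran from 11125279 to 20561967 counts, with a median of 16384049, and the testis libraries from 16915370 to 19684956. Levels are given as CPM, the count as a share of the scaled library total, with scaling over all 56 libraries. Several duct libraries stood apart. The second caput library of 3 months had 49.7% of its counts on the single gene Gm42418, which took 2.29% to 5.05% in the testis. In the efferent ductules at 21 months, libraries 1 and 4 were the shallowest (11442133 and 11125279 counts) and had lower duct epithelium markers than libraries 2 and 3 (summed 359.9 and 385.3 against 936.9 and 819.7 CPM). The libraries of 3 months there summed to 373.2 to 426.2 CPM, so by these markers libraries 1 and 4 lay near the young and libraries 2 and 3 above them. Leaving out libraries 1 and 4 keeps the older libraries that differed most from the young in these markers. Gm42418 took 1.27% to 3.30% of the counts in the efferent ductules at 3 months and 22.2%, 4.93%, 14.9% and 18.5% in libraries 1 to 4 at 21 months, with no overlap. Library 3 of the efferent ductules at 3 months had summed meiotic and spermatid markers of 58.2 and 281.5 CPM, beside at most 16.6 and 150.7 CPM in the others. Library 3 of the cauda at 3 months had summed macrophage markers of 1531 CPM, beside 320.2 to 344.6 CPM in the others. Further duct libraries differed from their group in a single marker list. Calls of the 10 genes by age in the caput, efferent ductules and cauda are given below also without these 5 libraries, which were chosen after the data were seen. The levels by region include them, as do the counts of other genes unless stated.

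All 10 genes were detected in each of the 8 testis libraries. Per kilobase of exon, which allows genes to be compared, the level in the testis at 3 months was 38.5 ± 1.7 CPM for Inha and 36.8 ± 2.3 for Cldn11 (SD, n = 4, as in all values below). The 3 transcription factors lay lower, with 9.05 ± 0.41 CPM per kilobase for Wt1, 6.86 ± 0.45 for Gata4 and 4.15 ± 0.24 for Sox9. Inhbb reached 5.29 ± 0.88 and Dhh 2.35 ± 0.10. The lowest levels per kilobase were those of Fshr at 1.13 ± 0.30, Amh at 1.04 ± 0.23 and Gdnf at 0.391 ± 0.112. Amh, Fshr and Gdnf thus rested on few reads, between 19 and 56 counts in any testis library of 3 months.

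The question of the first comparison was whether the Sertoli genes differed in the testis between 3 and 21 months. None of the 10 genes was called, where a gene had to change by 1.5-fold or more with an unadjusted p under 0.05. By the same rule 2.71% of all 30031 genes tested in the testis were called. None of the 10 had a Benjamini-Hochberg adjusted p under 0.05 either, with or without the fold limit, against 0.253% of all genes with the limit and 0.563% without it. At an unadjusted p under 0.05 alone, 3 of the 10 genes passed (Sox9, Wt1 and Inha), beside 10.4% of all genes, and DESeq2 also called none. The median log2 difference of the 10 genes was 0.03 beside -0.01 for all genes tested, and 5 of the 10 differences were positive. Summed over the 10 genes, the level ran from 255.2 to 270.8 CPM at 3 months and from 263.4 to 288.6 CPM at 21 months.

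Sox9, the factor that starts Sertoli cell differentiation, had the smallest p of the 10. Its level in the 4 testis libraries of 3 months was 16.55, 16.95, 18.6 and 16.5 CPM, and in those of 21 months 25.9, 21.0, 21.0 and 19.3 CPM. Every older library lay above every younger library, and the first library of 21 months lay above the other three. The mean was 17.15 ± 1.01 CPM at 3 months and 21.8 ± 2.8 CPM at 21 months, a log2 difference of 0.33 (SE 0.09, 95% interval 0.14 to 0.52). The unadjusted p was 0.0013 and the adjusted p 0.119 (edgeR quasi-likelihood test), and the whole interval lay under the 1.5-fold limit. Without the first library of 21 months the log2 difference was 0.24.

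Wt1, the zinc finger factor that holds Sertoli cell identity, had 56.1, 52.45, 57.55 and 58.2 CPM at 3 months and 62.45, 65.0, 65.5 and 61.0 CPM at 21 months. Its ages did not overlap either. The means were 56.1 ± 2.6 and 63.5 ± 2.1 CPM, and the log2 difference of 0.16 (SE 0.06) had an adjusted p of 0.324. Sox9 and Wt1 were the 2 of 10 genes whose ages did not overlap, and 6.31% of all genes tested in the testis had ages that did not overlap. Gata4, which acts with Wt1 on Sertoli promoters, lay at 26.8 ± 1.8 and 28.8 ± 2.7 CPM with overlapping ages (log2 difference 0.09, adjusted p 0.749).

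Among the hormone genes, Inha had 54.8, 57.95, 59.8 and 54.7 CPM at 3 months and 50.95, 54.8, 51.3 and 47.9 CPM at 21 months. The older libraries lay lower, but the second of them reached the range of the younger. The means were 56.8 ± 2.5 and 51.2 ± 2.8 CPM, with a log2 difference of -0.16 (SE 0.06) and an adjusted p of 0.324. Inhbb, which encodes the partner subunit, had means of 22.5 ± 3.7 and 22.5 ± 1.4 CPM. Its log2 difference was -0.01 with a 95% interval of -0.22 to 0.19 (adjusted p 0.988). Amh lay at 1.74 ± 0.38 and 1.43 ± 0.28 CPM, and the interval of its log2 difference (-0.78 to 0.18, estimate -0.30) reached past the 1.5-fold limit. Amh rested on 20 to 37 counts per library.

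Fshr lay at 1.69, 3.08, 2.65 and 3.25 CPM at 3 months and at 1.93, 1.74, 2.68 and 2.22 CPM at 21 months. The ages overlapped, since the first young library was the lowest of the 8. Its log2 difference was -0.33 (SE 0.21, interval -0.76 to 0.10, adjusted p 0.625). Cldn11, the barrier claudin, had 68.9 ± 4.4 and 67.5 ± 5.7 CPM, and its interval of -0.18 to 0.10 around -0.04 was among the narrowest of the 10.

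Of the paracrine ligands, Dhh lay at 10.3 ± 0.4 CPM in the young and 11.02 ± 0.82 CPM in the old testis, with a log2 difference of 0.08 (adjusted p 0.852). Reads on Dhh are less certain than on the others, because 1653 exon bases of its gene model are shared with Rhebl1 on the same strand and with the antisense gene Gm49442. Gdnf had 1.44 ± 0.41 and 1.62 ± 0.28 CPM, from 19 to 36 counts per library. Its log2 difference of 0.16 had an interval of -0.34 to 0.66, which holds a 1.5-fold rise.

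**Figure D1:**
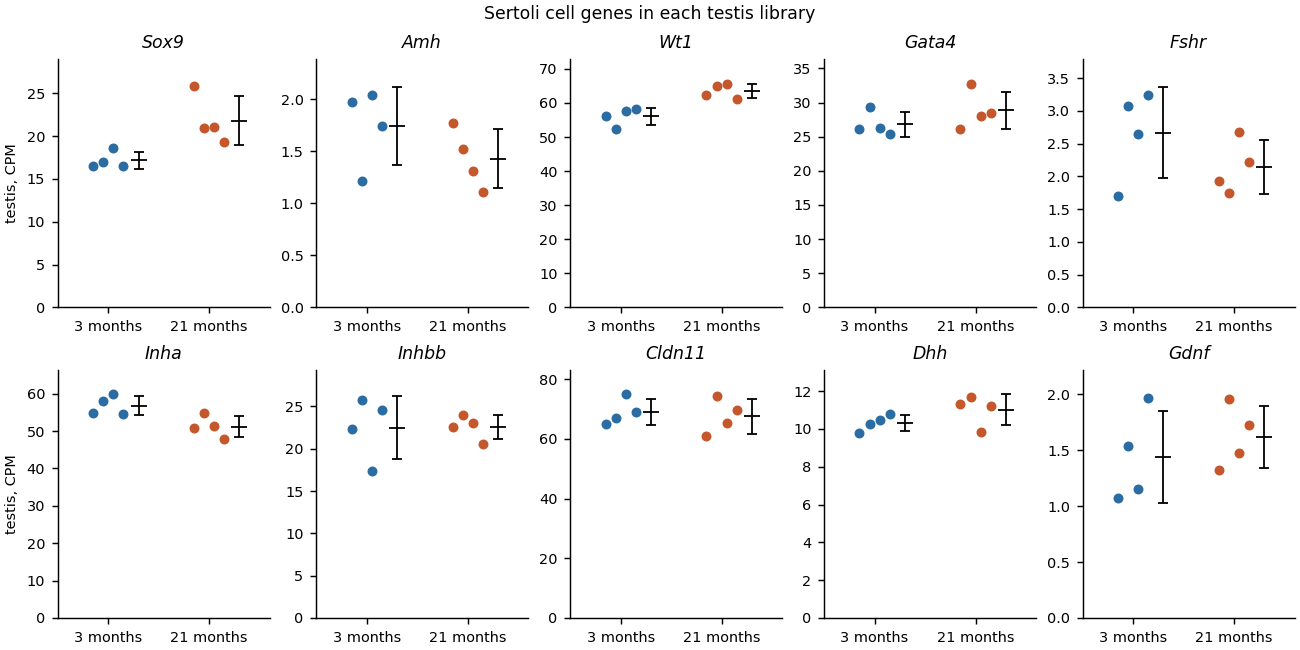
Level of each Sertoli cell gene in CPM in the 8 testis libraries, with 1 point per library (blue 3 months, orange 21 months) and a bar for the mean ± SD of 4 libraries. Only Sox9 (16.5 to 18.6 against 19.3 to 25.9 CPM) and Wt1 (52.5 to 58.2 against 61.0 to 65.5 CPM) have ages that do not overlap.

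**Figure D2:**
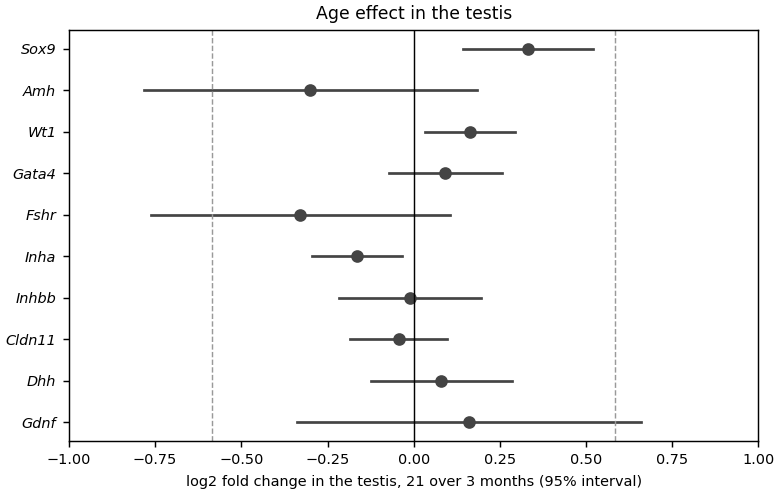
Log2 fold change of 21 over 3 months in the testis for the 10 genes, as the fitted value (point) with its 95% interval (line); dashed lines mark 1.5-fold in either direction. All 10 points lie between the dashed lines, and the intervals of Amh, Fshr and Gdnf, the genes with the fewest counts, cross them.

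The genes that receive or answer these signals were read from a list of 18 ligands, receptors and targets of the members. None of the 18 was called in the testis, and 9 of 18 differences were positive. Amhr2, the receptor of anti-Müllerian hormone, had the highest level of the list at 155.0 ± 9.8 and 150.3 ± 9.2 CPM. Gnas (103.1 and 112.4 CPM), the stimulatory G protein that carries the Fshr signal, followed, with Tgfbr3, the inhibin co-receptor (45.6 and 47.0 CPM), and Acvr2a, an activin receptor (40.3 and 38.4 CPM). The hedgehog receptor Ptch1 lay at 24.7 and 24.6 CPM, and the Gdnf co-receptor Gfra1 at 3.59 and 4.70 CPM (adjusted p 0.382). Smo, the hedgehog signal transducer, had the smallest p of the 18, with 5.37 ± 0.52 and 3.84 ± 0.56 CPM, ages that did not overlap (as for 6.31% of all genes), and an adjusted p of 0.151.

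None of 24 other Sertoli genes was called in the testis, and 11 of the 24 differences were positive. The highest levels at 3 months were those of the protease gene Ctsl (207.0 and 200.8 CPM), the junction scaffold Tjp1 (144.7 and 167.4 CPM), the actin bundler Espn (130.3 and 153.6 CPM) and Aard (72.5 and 71.9 CPM). Tjp1 and Mro were the members of this list whose ages did not overlap, at log2 differences of 0.20 for each, beside 6.31% of all genes tested in the testis. Summed over the 24 genes, the level ran from 1006 to 1072 CPM at 3 months and from 1025 to 1130 CPM at 21 months.

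Markers of the other testicular cells bear on these levels, since CPM is a share of all RNA. None of 10 spermatogonial, 10 meiotic and 10 spermatid genes was called. An adjusted p under 0.05 with a change under 1.5-fold was found for Kit, which marks differentiating spermatogonia (34.7 ± 0.3 and 46.4 ± 1.8 CPM, adjusted p 0.0020), for the meiotic gene Ldhc (2474 ± 50 and 2170.0 ± 59.1 CPM, adjusted p 0.035) and for the smooth muscle myosin Myh11 (37.4 ± 6.0 and 25.8 ± 2.2 CPM, adjusted p 0.0028). Summed meiotic markers ran from 4500 to 4705 CPM at 3 months and from 4123 to 4251 CPM at 21 months, with Ldhc as the highest of the list, and those of spermatogonia from 549.2 to 615.1 and from 630.0 to 654.4 CPM. Most of the spermatogonial sum was Dmrtb1 (450.3 and 485.1 CPM), and 3 of the 10 spermatogonial differences were positive, with a median log2 difference of -0.11. Summed spermatid markers overlapped between the ages. Of 8 Leydig cell genes, Star (33.8 ± 5.1 to 69.1 ± 8.5 CPM, adjusted p 1.24e-06) and Hsd3b6 (61.2 ± 12.9 to 100.6 ± 14.96 CPM, adjusted p 0.0017) rose, and Cyp11a1 (92.7 ± 18.1 to 61.6 ± 7.8 CPM, adjusted p 0.0026) fell, the last with overlapping ages. The macrophage gene Cd68 rose from 1.64 ± 0.20 to 3.77 ± 0.67 CPM (adjusted p 0.0017), the only call among 8. None of 7 smooth muscle and peritubular, 5 endothelial, 6 tested mesothelial and 5 tested duct epithelium genes was called. Smooth muscle and peritubular markers summed to 299.4 to 343.8 CPM at 3 months and 275.5 to 294.5 CPM at 21 months. Mesothelial markers, which bear on Wt1 because the mesothelium expresses it, summed to 107.7 to 138.5 CPM and 126.2 to 148.1 CPM, but this sum was nearly all Muc16 (112.2 and 128.3 CPM), and the other 6 genes had means of 0.041 to 4.76 CPM. Of the 6 tested mesothelial differences 2 were positive, with a median log2 difference of -0.12. Of the 7 duct epithelium genes, 5 lay at or near 0 in the testis, with at most 7 counts in a library. The other two were Aqp9 (93.4 and 89.4 CPM), which carried the sum of 82.0 to 107.2 CPM at 3 months and 89.8 to 95.2 CPM at 21 months, and Pax2 (2.43 and 2.42 CPM). The part of these shifts in cell markers in the Sertoli gene levels was not tested.

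The second comparison asked how far the 10 genes are confined to the testis along the tract. At 3 months, 6 of the 10 were testis-specific, by a rule that asks for 4 times the mean level of the 6 ducts or more and an unadjusted p under 0.05; 28.2% of all genes tested met it. The same 6 genes met it at 21 months, when 27.6% of all genes did. They were Wt1, Gata4, Fshr, Inha, Cldn11 and Dhh. Amh, Sox9, Inhbb and Gdnf did not meet the rule at either age.

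Fshr was the most confined of the 6. It had 30 to 56 counts in the testis libraries of 3 months, while no duct library of either age held more than 1 count, so no ratio is given. Gata4 lay at 26.8 ± 1.8 CPM in the testis and at 0.86 ± 0.24 CPM in the efferent ductules, the next region, and the testis had 105 times the mean of the ducts. For Dhh the ratio was 18.8, with 0.867 ± 0.288 CPM in the vas deferens as the next level.

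Because Fshr reads were in effect limited to the testis, the 250 bases before its start site are shown, from RefSeq on GRCm38.p6 at chr17:89200676-89200925, minus strand. The capitals mark the E box CACGTG, found at 61 bases before the start on this strand; 6.02% of 32851 such windows hold this motif, a palindrome and so counted once for both strands.
Fshr: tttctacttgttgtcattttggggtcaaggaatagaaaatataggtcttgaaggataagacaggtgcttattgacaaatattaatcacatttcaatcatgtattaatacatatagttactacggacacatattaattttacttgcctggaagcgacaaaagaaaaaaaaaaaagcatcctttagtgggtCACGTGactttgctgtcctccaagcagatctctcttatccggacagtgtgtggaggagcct

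The other 3 testis-specific genes had a clear level in some ducts. Cldn11 lay at 68.9 ± 4.4 CPM in the testis and 17.7 ± 3.8 CPM in the caput, and was lowest in the vas deferens at 0.372 ± 0.176 CPM. Inha lay at 56.8 ± 2.5 CPM in the testis and 30.7 ± 10.3 CPM in the caput, where the 4 libraries of 3 months spread from 20.5 to 45.1 CPM. Wt1 lay at 56.1 ± 2.6 CPM in the testis, 19.9 ± 2.0 CPM in the vas deferens and 14.1 ± 2.4 CPM in the corpus, and was lowest in the initial segment at 1.75 ± 0.58 CPM. The libraries of the testis did not overlap those of the next region for any of these genes at either age. The ratios of the testis to the mean of the ducts were 7.89 for Cldn11, 5.75 for Inha and 5.40 for Wt1 at 3 months, and 8.11, 7.19 and 6.65 at 21 months.

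Sox9 had its highest level outside the testis. At 3 months it lay at 205.9 ± 28.6 CPM in the efferent ductules, 163.9 ± 35.8 CPM in the initial segment and 77.2 ± 16.2 CPM in the caput. The testis came next at 17.15 ± 1.01 CPM, followed by the vas deferens at 15.2 ± 2.1, the cauda at 14.3 ± 2.9 and the corpus at 6.52 ± 0.80 CPM. The efferent ductules overlapped the initial segment, and the testis, vas deferens and cauda overlapped their neighbours in this order, while the other steps were larger than the spread. The testis had 0.197 times the mean of the ducts in CPM. On the log2 scale, where each region weighs the same, it lay below the mean of the 6 ducts by -1.30 (SE 0.13, adjusted p 1.34e-10).

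Inhbb was highest in the initial segment, at 164.8 ± 13.5 CPM at 3 months and 137.9 ± 17.3 CPM at 21 months. The caput (33.8 ± 5.8), efferent ductules (25.9 ± 4.3) and testis (22.5 ± 3.7 CPM) overlapped in sequence at 3 months. The mean of the ducts for Inhbb was carried by the initial segment, and on the log2 scale, where each region weighs the same, the testis lay above the ducts by 0.44 (SE 0.11) at 3 months and by 0.01 (SE 0.16) at 21 months. Its partner Inha had another order, with the testis highest and only 4.63 ± 1.86 CPM in the initial segment, so the 2 subunit genes of inhibin B did not share a regional pattern. Inhba, which encodes the beta A subunit, lay at 0.729 ± 0.186 CPM in the testis and at 29.3 ± 1.5 CPM in the efferent ductules.

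Gdnf was highest in the corpus, at 9.43 ± 2.14 CPM at 3 months, and lay at 1.44 ± 0.41 CPM in the testis and 0.169 ± 0.172 CPM in the efferent ductules. Its co-receptor Gfra1 was highest in the caput, at 539.6 ± 33.6 CPM, with 181.5 ± 36.9 CPM in the initial segment and 3.59 ± 0.12 CPM in the testis. Ret, the kinase of the same receptor, was highest in the efferent ductules at 89.2 ± 14.4 CPM. Amh was highest in the testis at 3 months (1.74 ± 0.38 CPM), apart from the efferent ductules (0.832 ± 0.202 CPM), but at 21 months the testis (1.43 ± 0.28) overlapped the vas deferens (1.08 ± 0.17 CPM).

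**Figure D3:**
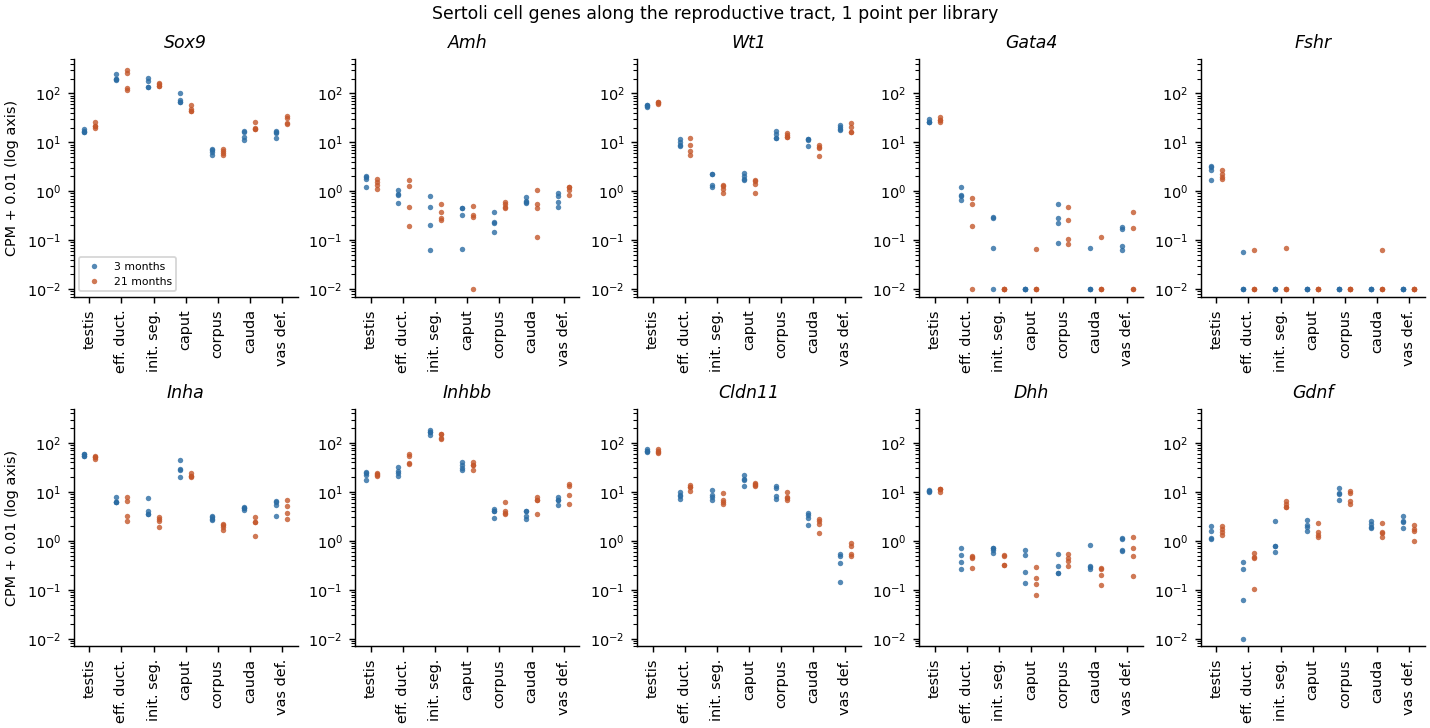
Level of the 10 Sertoli cell genes in CPM in 7 regions, with 1 point per library (blue 3 months, orange 21 months; log axis after adding 0.01, so points at the floor are libraries with no count). Fshr and Gata4 stand out in the testis, Sox9 and Inhbb are highest in the efferent ductules or initial segment, and Gdnf is highest in the corpus.

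For each member, the 3 genes with the most similar pattern over the 14 region and age means were found among 24968 genes by Pearson's r of log2(CPM + 1), as a description; the 14 points share libraries and depth for all genes. For Sox9 they were Ncmap, Cttnbp2nl and Rcc2 (r = 0.960 to 0.965), for Wt1 Muc16, 1010001N08Rik and Usp28 (0.958 to 0.972), and for Inha Tmem198, Kcnmb4 and Gm28884 (0.968 to 0.983). Those of Inhbb were Sytl5, Pla2g5 and Clec18a (0.959 to 0.963), those of Cldn11 C1qtnf4, Tmem219 and 2310010J17Rik (0.942 to 0.948), and those of Amh Brsk1, Syne3 and Gpr162 (0.952 to 0.956). Gata4 (Gm42775, Gm10505 and Zscan10), Fshr (4930477E14Rik, 4930433J02Rik and Olfr1281) and Dhh (Elf2, Gm4969 and Gm34354) had r of 0.994 or more, as genes with a level in the testis and little elsewhere do. Gdnf had the least similar neighbours, Becn1, Srr and Gm49194 (0.863 to 0.882).

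The third comparison set the ages against each other in the 6 ducts. Of 60 pairs of a member and a duct, 52 could be tested, and 11 were called, 5 higher and 6 lower at 21 months. The untested pairs were Fshr in all ducts and Gata4 in the caput and cauda, which had too few counts. Calls were 1 of 9 tested members in the efferent ductules (12.8% of all genes), 3 of 9 in the initial segment (11.5%), 1 of 8 in the caput (13.2%), 1 of 9 in the corpus (6.84%), 2 of 8 in the cauda (8.3%) and 3 of 9 in the vas deferens (17.8%). With an adjusted p under 0.05 as well, 4 pairs were called, which were Gdnf in the initial segment (4.97% of all genes by this rule), Inhbb in the efferent ductules (4.71%), Sox9 in the caput (5.71%) and Sox9 in the vas deferens (11%).

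Gdnf in the initial segment had the largest log2 difference of these 4 pairs. Its level was 0.780, 2.49, 0.587 and 0.779 CPM at 3 months (10 to 46 counts) and 4.99, 5.57, 6.61 and 4.82 CPM at 21 months (69 to 91 counts). The second young library lay above the other three, and all 4 older libraries lay above it. The mean rose from 1.16 ± 0.89 to 5.50 ± 0.81 CPM, a log2 difference of 2.19 (SE 0.36, interval 1.43 to 2.95, adjusted p 0.0023). Leaving out any of the 8 libraries gave 1.98 to 2.94, the highest without the second young library. At 21 months the initial segment overlapped the corpus (8.05 ± 2.27 CPM), the region with the highest Gdnf level. Gfra1 (181.5 ± 36.9 and 201.5 ± 14.3 CPM) and Ret (46.6 ± 2.0 and 49.7 ± 6.0 CPM) were not called in this region. Summed macrophage markers there ran from 199.8 to 213.7 CPM at 3 months and from 248.6 to 320.6 CPM at 21 months (3 of 8 genes called higher). Summed spermatid markers in this region ran from 43.6 to 120.1 and from 14.97 to 44.5 CPM (9 of 10 called lower), meiotic markers from 30.6 to 52.7 and from 23.8 to 36.2 CPM (6 of 10 called lower), and Leydig cell markers from 6.55 to 9.003 and from 5.49 to 6.22 CPM (3 of 8 called lower). Those of smooth muscle ran from 2527 to 3092 and from 2064 to 2480 CPM (0 of 7 called). Duct epithelium markers ran from 7523 to 9181 and from 7026 to 9181 CPM, with 0 of 7 differences positive and Akr1b7 called lower. The spermatogonial gene Dmrtb1 was called lower, with an adjusted p under 0.05 as well. The part of these cells in the Gdnf, Inha, Gata4 and Amhr2 values of the initial segment was not tested.

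For Gdnf, which had the largest log2 difference of the 4 pairs called with an adjusted p, the 250 bases before each of its 2 RefSeq start sites are shown, on GRCm38.p6, plus strand, the first at chr15:7809798-7810047 and the second at chr15:7813477-7813726. Capitals mark the nuclear receptor motif AGGTCA in the first window (14% of all windows hold it on either strand) and in the second the overlapping GATA motifs AGATAG and AGATAA (26.5% of all windows hold on either strand at least 1 of the motifs AGATAA and AGATAG or their forms that begin with T, TGATAA and also TGATAG). The first start site, at base 7810048, lies before the GENCODE M21 gene model, which begins at 7810846. The counts are per gene and do not say from which start site the reads came.
Gdnf first start: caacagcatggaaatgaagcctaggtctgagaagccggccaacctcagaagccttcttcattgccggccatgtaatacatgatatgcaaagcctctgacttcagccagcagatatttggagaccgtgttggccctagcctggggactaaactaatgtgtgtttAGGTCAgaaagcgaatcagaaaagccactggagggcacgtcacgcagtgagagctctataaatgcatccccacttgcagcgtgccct
Gdnf second start: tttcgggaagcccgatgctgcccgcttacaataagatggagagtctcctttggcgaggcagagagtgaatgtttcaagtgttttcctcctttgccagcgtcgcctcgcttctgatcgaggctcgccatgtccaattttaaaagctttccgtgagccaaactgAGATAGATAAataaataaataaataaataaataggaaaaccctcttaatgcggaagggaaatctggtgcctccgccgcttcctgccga

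Sox9 rose with age in the vas deferens and fell in the caput. In the vas deferens it rose from 15.75, 12.2, 16.4 and 16.7 CPM to 25.0, 34.0, 31.9 and 23.9 CPM, with no overlap. The log2 difference was 0.91 (SE 0.14, adjusted p 0.0021), and 0.81 to 0.98 when any library was left out. In the caput it fell from 67.2, 101.1, 73.5 and 66.9 CPM to 43.75, 44.3, 46.8 and 57.9 CPM, again with no overlap. The log2 difference there was -0.68 (SE 0.14, adjusted p 0.016). The highest caput value belonged to the library with 49.7% of its counts on Gm42418. Without that library the difference was -0.51 (adjusted p 0.022), which is under 1.5-fold, and with scaling by library size only it was -0.40 (unadjusted p 0.205). Leaving out library 1, 2 or 3 of 21 months raised the adjusted p to 0.057 to 0.066. In the cauda Sox9 lay at 14.3 ± 2.9 and 20.9 ± 3.4 CPM with no overlap, but the log2 difference of 0.56 was under the fold limit and the adjusted p was 0.303. Inha in the caput, at 30.7 ± 10.3 and 21.8 ± 1.5 CPM, was not called (log2 difference -0.51, adjusted p 0.101), but it was without that library (-0.64, adjusted p 0.039). In that fit 11.6% of all genes were called, and 4.08% with an adjusted p as well.

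Other markers moved in the same places. In the vas deferens, summed duct epithelium markers ran from 21904 to 24945 CPM at 3 months and from 11950 to 19206 CPM at 21 months (2 of 7 genes called, both higher), and smooth muscle markers from 12734 to 13173 and from 13342 to 19773 CPM (0 of 7 called). Of the 7 duct epithelium differences in the vas deferens 5 were positive, with a median log2 difference of 0.75. The lower sum was thus not shared by most of these duct epithelium genes. In the caput, smooth muscle markers ran from 1089 to 1520 and from 833.6 to 954.2 CPM (3 of 7 genes called lower, 4 without library 2 of 3 months), and duct epithelium markers from 2196 to 2871 and from 1574 to 2160 CPM (2 of 7 called lower). Spermatid markers in the caput ran from 126.7 to 170.0 and from 100.8 to 113.5 CPM (5 of 10 called lower, 3 without library 2 of 3 months), and macrophage markers from 138.0 to 155.6 and from 157.4 to 181.5 CPM (1 of 8 called higher). Meiotic markers there rose from 11.8 to 17.7 CPM to 18.7 to 23.3 CPM (2 of 10 called higher, with or without that library). The spermatogonial gene Sall4 and the Leydig cell gene Cyp17a1 were also called higher, Cyp17a1 not without that library. Also in the caput, Cdh5 was called lower of 5 endothelial genes (not without library 2 of 3 months), at sums of 67.9 to 92.8 and 51.6 to 78.3 CPM, and Upk1b higher of 7 mesothelial genes, at sums of 219.5 to 282.1 and 238.4 to 262.8 CPM. In the vas deferens 3 of 8 macrophage genes were called higher, at sums of 218.6 to 296.4 and 190.2 to 348.1 CPM, and 3 of 10 spermatid genes were called higher, at sums of 10.9 to 114.8 and 36.3 to 111.2 CPM. Endothelial markers there ran from 160.7 to 175.5 and from 114.7 to 161.9 CPM (Tie1 called lower of 5), and mesothelial markers from 631.5 to 713.9 and from 524.2 to 996.0 CPM (Msln called lower of 7). Their part in the Sox9 differences was not tested.

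Inhbb in the efferent ductules had 26.3, 24.2, 21.5 and 31.6 CPM at 3 months and 39.6, 59.9, 53.6 and 37.1 CPM at 21 months. The ages did not overlap, and the older libraries 2 and 3, with the higher duct epithelium markers, lay above libraries 1 and 4. The mean rose from 25.9 ± 4.3 to 47.55 ± 10.95 CPM, with a log2 difference of 0.89 (SE 0.17, adjusted p 0.016). Without library 1 or 3 of 3 months the adjusted p was 0.058 and 0.055. The difference was 0.96 without library 1 and 0.98 without library 4 of 21 months. It was 0.78 without library 2 and 0.83 without library 3 of 21 months, where Inhbb was higher. With scaling by library size only it was 0.57, just under the fold limit. The share of Gm42418 rose with age in this region as given above, and with that gene omitted before scaling the difference of Inhbb was 0.89. Sox9 split in the same way there, at 256.4 and 293.3 CPM in libraries 2 and 3 and 117.0 and 129.3 CPM in libraries 1 and 4, and its ages overlapped. Cldn11 in this region lay at 8.41 ± 1.14 and 12.3 ± 1.4 CPM with no overlap, at a log2 difference of 0.56 and an adjusted p of 0.051. Without libraries 1 and 4 of 21 months, when 16.6% of all genes were called and 12.6% with an adjusted p as well, the log2 difference of Inhbb was 1.12 (adjusted p 1.65e-04), that of Cldn11 was 0.43 (adjusted p 0.059), and that of Sox9 went from -0.04 to 0.41 (adjusted p 0.016), still under the fold limit. Amh was called without them, at a log2 difference of 0.80 and an adjusted p of 0.113. With library 3 of 3 months left out as well, Inhbb and Amh were again the members called, beside 17.2% of all genes. Macrophage markers summed to 276.9 to 336.2 CPM at 3 months and 418.2 to 561.6 CPM at 21 months (4 of 8 genes called higher), and smooth muscle markers to 532.3 to 598.0 and 629.9 to 773.3 CPM (Des and Actg2 called higher of 7, Des not without libraries 1 and 4 of 21 months). Duct epithelium genes called higher numbered 1 of 7, and 5 of 7 without libraries 1 and 4 of 21 months (beside the 16.6% of all genes), where their sum was 819.7 to 936.9 CPM at 21 months against 373.2 to 426.2 CPM. Spermatid genes called higher numbered 2 of 10, and 6 without library 3 of 3 months (11.8% of all genes). Without libraries 1 and 4, 2 of 7 mesothelial genes (Bnc1 and Muc16) were called lower. The part of these markers in the values of this region was not tested.

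The other 7 called pairs did not pass the adjusted threshold. Inha was lower at 21 months in 3 of them, the initial segment (log2 difference -0.82, adjusted p 0.082), the corpus (-0.59, adjusted p 0.177) and the cauda (-1.02, adjusted p 0.157). Its cauda level went from 4.60, 4.72, 4.29 and 4.99 CPM to 2.39, 1.25, 3.08 and 2.42 CPM, with no overlap. In the corpus, smooth muscle markers ran from 593.6 to 893.0 and from 442.3 to 660.1 CPM, with all 7 differences negative and Cnn1 called lower. The Leydig cell gene Hsd17b3 and the spermatogonial gene Dmrtb1 were called higher there, and the duct epithelium gene Rnase13 lower. The part of these cells in the corpus value of Inha was not tested. In the cauda, smooth muscle markers ran from 4555 to 6645 and from 2728 to 4391 CPM (4 of 7 genes called lower), and 3 of 7 mesothelial, 2 of 8 macrophage and 2 of 5 endothelial genes were called lower. Leydig cell markers there ran from 7.78 to 11.15 and from 4.84 to 5.48 CPM (Cyp17a1 called lower of 5 tested). Of 7 duct epithelium genes, Rnase13 was called lower and Akr1b7 higher. The calls of Cyp17a1, Rnase13 and Akr1b7 held also without library 3 of 3 months. Without library 3 of 3 months, which had the highest macrophage and endothelial sums, 0 macrophage and 0 endothelial genes were called, and 5 smooth muscle and 3 mesothelial genes were lower, beside 7.03% of all genes called. The part of these cells in the cauda values was not tested. Without that library the cauda differences were -1.04 for Inha and 0.81 for Inhbb, both still called. Without the fourth young library, which had 7.40 CPM beside 3.52 to 4.05 in the other three, the initial segment difference of Inha was -0.51, under the fold limit. Inhbb was higher in the cauda (0.84, adjusted p 0.277) and the vas deferens (0.63, adjusted p 0.114), and Gdnf lower in the vas deferens (-0.63, adjusted p 0.13), each with overlapping ages. When each of the 8 libraries of a region was left out in turn, the call was lost in 5 of 8 cases for Inhbb and 6 of 8 for Gdnf in the vas deferens, and in 4 of 8 for Inha in the corpus. The call of Gata4 in the initial segment rested on 0 to 5 counts per library at 3 months against 0 in all 4 libraries at 21 months, and no fold is given. Amh, Wt1, Cldn11 and Dhh were tested in all 6 ducts and called in none.

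**Figure D4:**
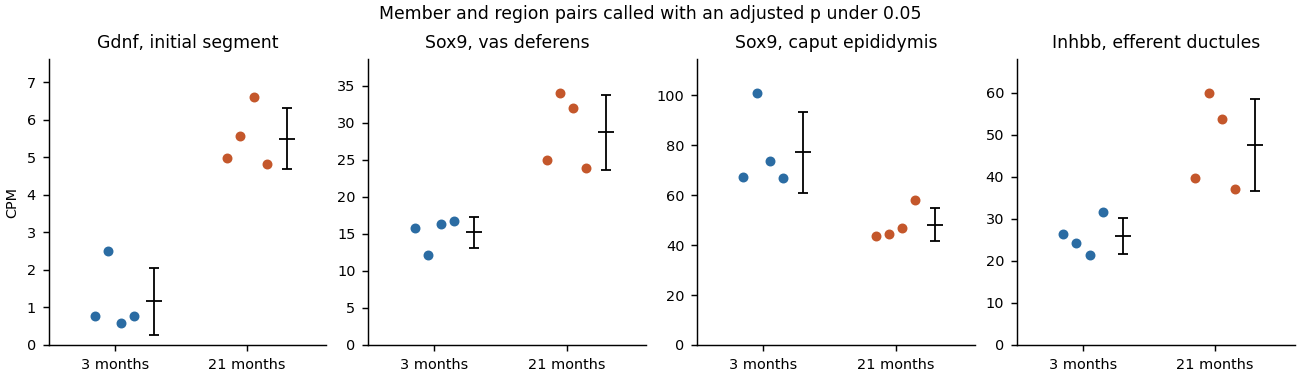
Level in CPM of the 4 pairs of gene and duct called with an adjusted p under 0.05, with 1 point per library (blue 3 months, orange 21 months) and a bar for the mean ± SD of 4 libraries. The ages do not overlap in any panel, Gdnf, Inhbb and Sox9 in the vas deferens are higher at 21 months, and Sox9 in the caput is lower, where 1 young library at 101.1 CPM lies above the rest.

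Of the 18 ligands, receptors and targets, 3 were called in the cauda, 2 each in the vas deferens, caput and corpus, 1 in the initial segment and none in the efferent ductules (2, Bmpr1a lower and Acvr2b higher, without libraries 1 and 4 of 21 months, also under the 16.6% of all genes in that fit), and in each duct but the cauda and corpus this share was at or below that of all genes given above. In the vas deferens, where the Gdnf level was 2.47 ± 0.56 and 1.59 ± 0.48 CPM, Ret rose from 13.5 ± 3.7 to 36.8 ± 7.7 CPM (adjusted p 0.0013), and Gfra1 fell from 13.3 ± 1.5 to 5.22 ± 2.59 CPM (adjusted p 0.011). In the caput, Fstl3, an activin antagonist, fell from 28.1 ± 5.1 to 15.1 ± 2.3 CPM (adjusted p 0.0064, and 0.015 without library 2 of 3 months), and the hedgehog target Gli1 from 16.1 ± 2.7 to 9.56 ± 1.14 CPM (adjusted p 0.013, and 0.030 without it). Amhr2 in the initial segment had 0.654 ± 0.165 CPM at 3 months and 0.055 ± 0.070 CPM at 21 months (0 to 2 counts; adjusted p 0.0098), where the testis had 155.0 CPM and the germ and Leydig cell markers named above were lower with it. The calls in the corpus (Ret and Amhr2, higher) and the cauda (Gfra1, Fstl3 and the activin antagonist Fst, lower) had adjusted p values of 0.064 to 0.343.

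Whether the age effect differed between regions was tested in all 56 libraries together, as if they were independent, although regions share mice. The age effect in the testis differed from the mean effect of the 6 ducts for none of the 8 genes where it could be estimated, at an adjusted p under 0.05, as for all but 0.0649% of genes. Wt1 had the smallest p, with a log2 difference between the effects of 0.49 (SE 0.18, unadjusted p 0.0099, adjusted p 0.611). For Gata4 and Fshr the term could not be estimated, since some duct groups were at 0. An F-test over all 7 regions, added after the data were seen, asked whether the age effect was the same everywhere. It passed an adjusted p under 0.05 for 4 of the 8 genes that could be estimated, and for 20.2% of all genes. They were Sox9 (adjusted p 2.01e-04), Gdnf (2.25e-04), Inhbb (0.0028) and Cldn11 (0.021), and the same 4 passed without the 5 libraries that stood apart (Cldn11 at 0.047). With scaling by library size only, Inhbb (0.101) and Cldn11 (0.318) did not pass, and without a replicate number Inhbb was lost for number 3 (0.051) and Cldn11 for number 2 (0.070) or 4 (0.178). The values by region follow the pairs above, and for Cldn11 the log2 difference ran from -0.41 in the cauda to 0.56 in the efferent ductules and 0.82 in the vas deferens, where it rested on 2 to 15 counts. Wt1 (adjusted p 0.087), Inha (0.279), Dhh (0.310) and Amh (0.600) did not pass.

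**Figure D5:**
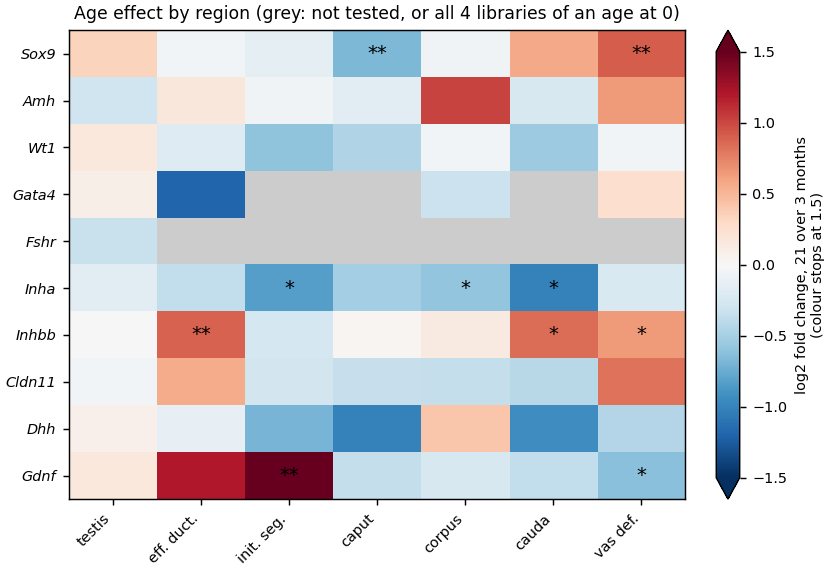
Log2 fold change of 21 over 3 months for each of the 10 genes (rows) in 7 regions (columns), as colour from blue (lower at 21 months) to red (higher); 1 asterisk marks a call at an unadjusted p, 2 asterisks one with an adjusted p under 0.05 as well, and grey cells were not tested or had an age at 0 in all 4 libraries. The testis column is pale and holds no call, and the 4 cells with 2 asterisks lie in the ducts; Gata4 in the initial segment, called on 0 to 5 counts against 0, is grey.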

How the data were processed

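Total RNA was made into libraries with the TruSeq Stranded Total RNA kit and sequenced as paired-end reads. Counts per Ensembl gene were deposited by the authors as whole numbers, without normalization. Their processing notes name cutadapt, HISAT2, HTSeq and the build mm10; versions, annotation release and strand setting are not given in the sources used here. No library was left out. Here, symbols and positions came from GENCODE M21 (GRCm38), which named 53274 of 53379 genes.

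Group and replicate number were read from the sample titles. Age was fitted in each region with edgeR 4.0.16 in R 4.3.3 (quasi-likelihood F-test, TMM) after removal of genes below 10 counts in total, and adjusted over all of them. Regions were fitted in the 28 libraries of an age, and differences of age effects in all 56. Adjusted p-values come from edgeR unless DESeq2 1.42.0 is named. The age test was tested on simulated counts for the testis, where it called 92.5% of 200 changed genes. Named beside the 10 genes are genes called in the testis, up to 4 of the highest level per list, and the 3 most similar genes per member; further genes were named after their values were seen. Members and lists were chosen with earlier results of these data known. Promoter windows came from the RefSeq table; 4 members had none there.

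Libraries of a group were compared in 84 pairs, and 0 agreed within sampling noise (chi-square per degree of freedom of at most 1.1). Alternatives were DESeq2, its size factors, library size only, filterByExpr, no filter, an adjusted p, the replicate number as a block, omission of Gm42418, 1 fit of all libraries, and omission of each replicate.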

Additional observations from a re-analysis of the deposited data

Results flagged for a closer look

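Among 89 groups of 4 libraries with a mean of at least 1 CPM, 5 held a library far from the other three by Dixon's test, which flags about 1 group in 20 by chance. Sox9 was 248.3 CPM in library 2 of the efferent ductules at 3 months, beside 186.7 to 196.6 in the others, and 26.05 CPM in library 4 of the cauda at 21 months, beside 18.97 to 19.5. Inha was 7.711 CPM in library 1 of the efferent ductules at 3 months (others 6.17 to 6.322) and 7.396 CPM in library 4 of the initial segment at 3 months (others 3.521 to 4.051). Gdnf was 2.492 CPM in library 2 of the initial segment at 3 months (others 0.5871 to 0.7798), and its rise with age in that region was larger without this library.

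The age effect differed among the 7 regions, by an F-test added after the data were seen, for Sox9 (adjusted p 0.0002007), Gdnf (0.0002249), Inhbb (0.002779) and Cldn11 (0.0214), all by edgeR.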

How the results depend on the processing

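In the testis 0 of the 10 genes were called under each of the 18 alternatives run, and 0 of the genes where it could be estimated differed from the ducts in their age effect. Without a filter on counts, Sox9 had an adjusted p under 0.05 in the testis, at a log2 difference of 0.33. The uncalled log2 differences of Inhbb (-0.12 to 0.05) and Cldn11 (-0.09 to 0.01) crossed 0. The testis-specific genes numbered 6 at both ages throughout, except for 7 at 3 months with DESeq2 or its size factors, which added Amh. The 11 pairs of gene and duct called by age became 4 when an adjusted p was required. They became 9 with DESeq2, with library size only and with the replicate block, 10 with DESeq2 size factors, with filterByExpr and without Gm42418, 14 in a fit of all libraries, and 8 to 13 without a replicate number. Without the 5 duct libraries that stood apart, an alternative added after the data were seen, 12 pairs were called and 4 passed the adjusted threshold as well, with Inha in the caput in place of Sox9 there. The 4 genes whose age effect differed among regions became 2 with library size only, and 3 to 4 without a replicate number. The cause was not tested. The replicate numbers pair libraries by no label, and libraries of the same number as the testis correlated at -0.11 to 0.13 in their deviations from group means, so the numbers are not read as mice. With the number as a block the log2 difference of Gdnf in the vas deferens was -0.65 (unadjusted p 0.058).

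Depth limits Amh, Fshr and Gdnf in the testis, whose intervals include changes past 1.5-fold, and Gata4, Fshr, Dhh and Amh in the ducts, where few counts were found. The test on simulated testis counts used 2-fold changes. Smaller changes would be called less often.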

Other observations

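The 24 other Sertoli genes gave calls by age in the ducts though none in the testis, and whether the ducts differ from the testis was not tested for them. In the efferent ductules 5 of 21 tested genes were higher at 21 months (Nr0b1, Cdh2, Cldn3, Etv5 and Cst12) and 2 lower (Kitl and Trf). Without library 3 of 3 months and libraries 1 and 4 of 21 months, 7 of 18 were higher, with Espn and Mro added, and the same 2 lower, where 17.2% of all genes were called in either direction. In the caput Cst12 was higher and Rhox8, Aard, Cldn3 and Emx2 were lower, of 19 tested; without library 2 of 3 months only Aard was lower, and Cdh2 and Cst12 were higher (11.6% of all genes called). The initial segment had 4 of 19 lower (Mro, Nr0b1, Aard and Sox8), all testis-specific at 3 months by the rule above. Germ and Leydig cell markers were also lower in that region, and their part in these calls was not tested. The cauda and vas deferens had 2 of 16 lower each (0 in the cauda without library 3 of 3 months, with 7.03% of all genes called), and the corpus 0 of 17. These counts use the unadjusted p and the 1.5-fold limit of edgeR's test, beside the shares of all genes given for each duct above where all libraries were used.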
